A study of Homo sapiens with 6 samples.

Results

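Solute carriers (SLC) are the largest family of membrane transport proteins in human cells. They move sugars, amino acids, lactate, ions, metals, vitamins and bile acids across the plasma membrane, and a branch of them (SLC25) exchanges metabolites across the inner mitochondrial membrane. In the intestinal epithelium they take up nutrients from the lumen and pass them on to the blood, and several of them work as heterodimers or compete for the same substrate with different affinity. The SLC genes described here are those rows of the deposited table whose symbol starts with SLC, with 1 row per symbol, after antisense names and 5 genes (SLC2A1, SLC5A1, SLC15A1, SLC7A11 and SLC6A8) were left out. This gave 63 genes among the 2162 symbols and assembled loci in the table. Of these, 61 encode transporters or their subunits, while SLC9A3R1 encodes the scaffold NHERF1 and SLC2A4RG a transcription factor, both named after a transporter they act on.

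The samples were Caco-2 cells, a human colorectal adenocarcinoma line used as a model of intestinal epithelium, wild type in genotype, in a control group (3 samples) and a group exposed to hypoxia and then reoxygenation (H/R, 3 samples). H/R stands in for loss and return of blood flow to the gut, and the comparison asks which genes differ after it. How long the sequenced cells were reoxygenated is not stated. The methods mention sequencing of H/R cells given a control or a targeting siRNA, the labels name no siRNA, and whether these 6 samples were transfected is unclear. No label says whether replicates were grown as cultures of their own. The p-values therefore measure only sample-to-sample spread, which may be technical. Levels are FPKM (fragments scaled by transcript length and by library total), with the mean ± SD over n = 3 samples per group. A change is the H/R mean less the control mean of log2(FPKM + 1), which understates the change of low genes, with the SE and the adjusted p of limma's moderated test.

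Nearly every row of the table differs between the groups. Of the 2184 rows with both group means above 0, 92.3% had a ratio of mean FPKM of at least 2 in either direction. The table therefore looks like a list of genes selected as changed, and other SLC genes were not analysed here. If its rows were selected on these same samples, whether a row would pass was largely set beforehand. The adjusted p-values below then order genes within the table and give no separate support that a gene changed. The depth of the libraries is unknown. Of the 10 markers listed for intestinal epithelium, 4 were in the table (ALPI, ANPEP, KRT20 and SI), and their summed level was 41.6 to 49.0 FPKM in control and 21.0 to 25.4 FPKM in H/R samples. ALPI and ANPEP fell, and of the pair under the minimum SI was lower after H/R (1.38 ± 0.364 and 0.480 ± 0.200 FPKM) and KRT20 higher (0.323 ± 0.122 and 1.54 ± 0.191 FPKM). Among markers of other cells, 2 of 5 fibroblast genes were in the table (summed level 20.3 to 28.2 FPKM in control and 27.3 to 34.6 FPKM in H/R samples), of which PDGFRA rose (7.98 ± 4.05 to 23.2 ± 4.05 FPKM) and COL1A1 fell (15.6 ± 0.221 to 7.08 ± 0.211 FPKM). Of 4 endothelial genes 1 was in the table (ESAM, which rose, 3.15 to 4.12 FPKM in control and 7.94 to 11.4 FPKM in H/R samples), and of 4 immune genes also 1 (CD14, which fell, 10.4 to 15.7 FPKM and 4.91 to 5.96 FPKM). Both goblet cell genes were in it, with a summed level of 216.5 to 415.6 FPKM in control and 82.0 to 136.8 FPKM in H/R samples. That sum was nearly all TFF3, which fell. MUC2 was far under the minimum and higher after H/R (0.00667 ± 0.00577 and 0.257 ± 0.081 FPKM in its higher row). Neither neuroendocrine gene was in the table. All samples are of the Caco-2 line, and the part of these marker genes in the changes below was not tested. In bulk RNA, fewer cells with a transcript and less of it per cell cannot be told apart.

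After H/R, SLC genes were called in both directions. The 5 largest rises on the log2(FPKM + 1) scale were those of SLC16A3 (lactate), SLC38A2 and SLC6A20 (amino acids) and SLC2A3 and SLC2A14 (glucose). The 5 largest falls were those of SLC25A20 (acylcarnitine), SLC10A1 (bile acids), SLC27A3 (fatty acids), SLC25A10 (dicarboxylates) and SLC23A1 (vitamin C). Their order depends on the pseudocount and scaling, and which genes are among them depends on the pseudocount. With a pseudocount of 0.01, SLC51A (2.933) and SLC35E4 (2.585) took the place of SLC2A3 and SLC2A14 among the rises. Among the falls, SLC25A35 (-2.394) and SLC38A4 (-1.945) then took that of SLC25A10 and SLC23A1. Of the 63 genes, 57 had a mean of at least 1 FPKM and were tested. Of these, 25 rose, 31 fell and 1 did not pass (adjusted p threshold 0.05). SLC51A, SLC35E4, SLC6A20 and SLC4A11 reached the minimum only through their H/R samples, and SLC27A3, SLC25A35, SLC24A1 and SLC22A17 only through control. In each, the other group had a mean under 1 FPKM, so passing the minimum already set the direction of the change. Over the 2033 rows tested 99.0% were called, with 46.1% that rose and 52.9% that fell, against 43.9% and 54.4% of the SLC genes, so the share of calls among SLC genes was near the background. The median change was -0.78 over the SLC genes and -0.80 over all rows tested. In 53 of the 57 SLC genes the groups did not overlap, as in 94.6% of all rows tested.

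By 2-fold or more in log2(FPKM + 1), 22 SLC genes rose and 25 fell (34.8% and 40.1% of all rows tested). This split depends on the scaling. With samples scaled by median-of-ratios, the median change of all rows moved from -0.80 to -0.41, and 25 SLC genes then rose and 7 fell by at least 2-fold. With equal totals the counts were 25 and 12. The median over SLC genes stayed near that over all rows, at -0.45 with median-of-ratios and at -0.56 against -0.54 with equal totals. The 2-fold share over all rows was counted without rescaling only, so the rescaled counts have no background and describe no trait of SLC genes. No SLC gene changed direction under these scalings or under quantile normalization. Each of them draws on the tested rows alone, of which 99.0% were called, so they cannot show which split is right. The same limit holds for the calls below that ended under a scaling.

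**Figure D1:**
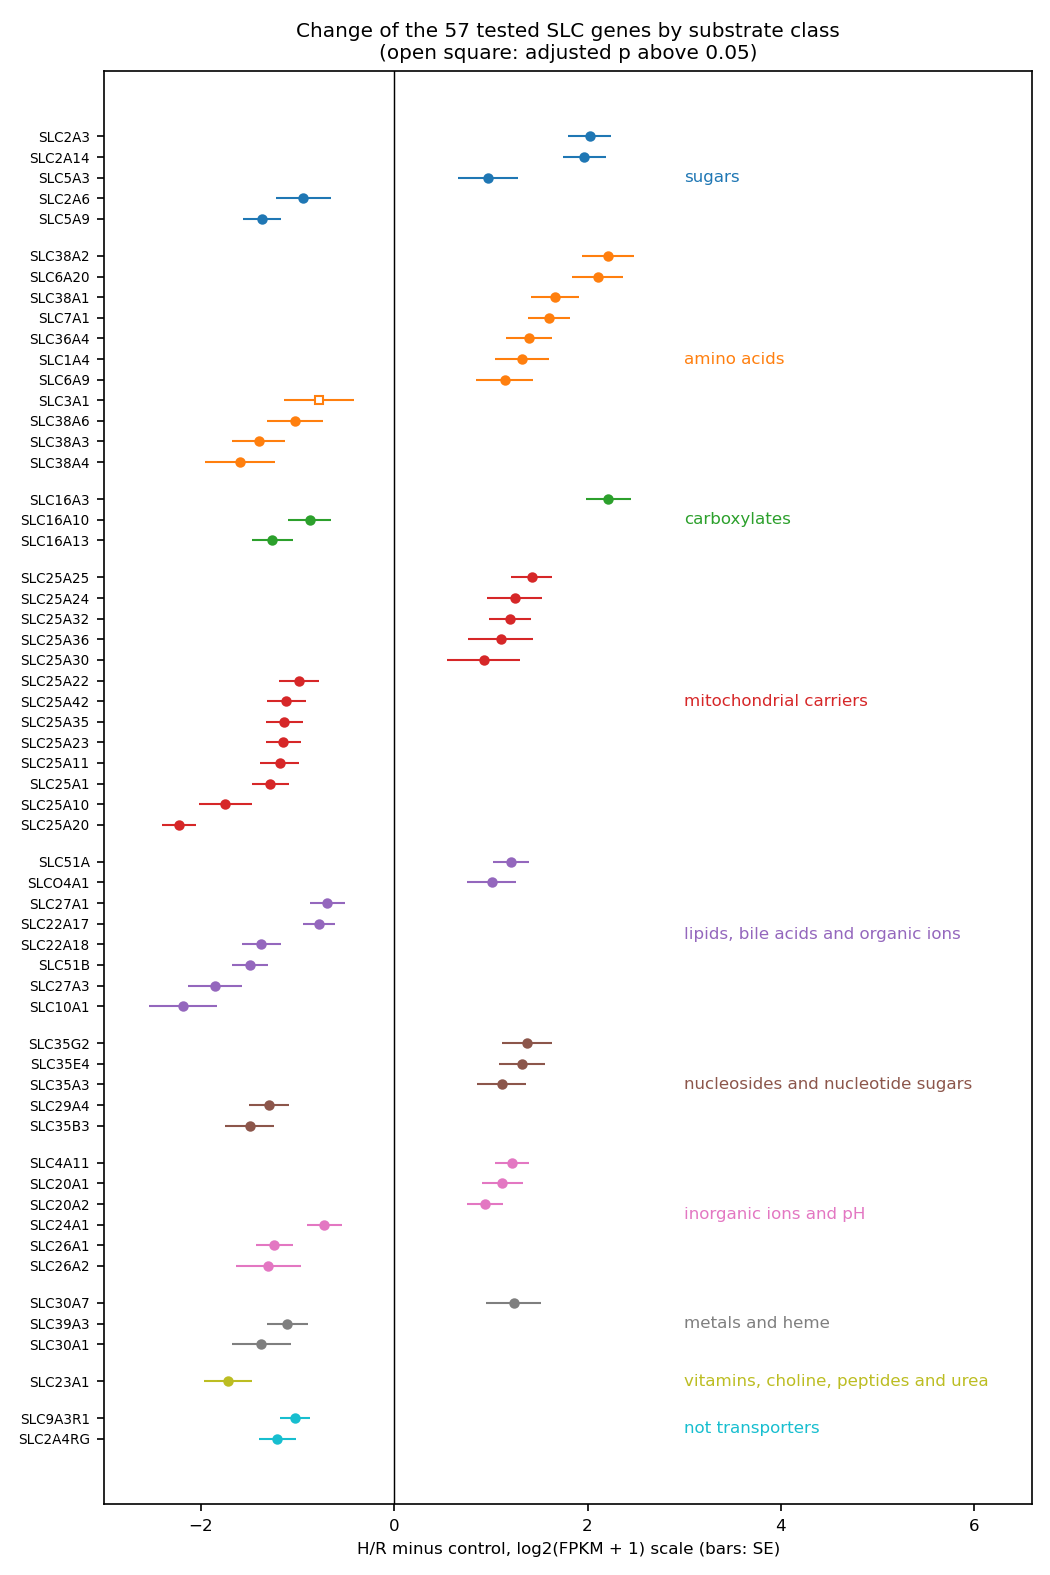
Change of each tested SLC gene, as the difference of mean log2(FPKM + 1), H/R less control (horizontal axis), with bars for the SE, grouped and coloured by substrate class. Of the amino acid genes 7 rose (63.6%) and 3 fell, and of the mitochondrial carriers 5 rose (38.5%) and 8 fell (61.5%). Over all rows tested 46.1% rose and 52.9% fell, near the shares of the mitochondrial carriers. The open square is SLC3A1, whose adjusted p was 0.0593.

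After H/R the highest mean levels among the 63 SLC genes, which leave out SLC2A1, were those of SLC2A3 and SLC2A14, both of which rose. SLC2A3 encodes GLUT3, a high-affinity glucose transporter, and was listed at 336, 457 and 567 FPKM in control replicates 1, 2 and 3 and at 1454, 1957 and 2064 FPKM in H/R replicates 1, 2 and 3. Every H/R sample lay above every control sample, and the change was 2.02 ± 0.22 (SE, adjusted p = 5.97e-05). SLC2A14, its close paralogue GLUT14, went from 163, 228 and 266 FPKM in control to 665, 914 and 984 FPKM after H/R (1.97 ± 0.22, adjusted p = 6.88e-05). The level of SLC2A14 was 0.457 to 0.500 times that of SLC2A3 in all 6 samples. The genes are near-identical in sequence, so reads of one may be counted for the other, and the rise of SLC2A14 is uncertain. Together, both rows rose 3.98-fold in summed FPKM, from 673 ± 167 to 2679 ± 493.

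The other sugar and polyol genes were far lower. SLC5A3, the sodium and myo-inositol cotransporter SMIT1, rose from 3.65 ± 1.89 to 7.83 ± 2.26 FPKM (0.97 ± 0.31, adjusted p = 0.0122), with overlapping groups, since control replicate 3 stood at 5.78 FPKM and H/R replicate 1 at 5.52 FPKM. Its call ended in an ordinary linear model (adjusted p = 0.0741). SLC5A11, the second myo-inositol cotransporter (SMIT2), was under the minimum for testing, with 0.88, 1.02 and 0.80 FPKM in control and 0.34, 0.23 and 0.28 FPKM after H/R. SLC5A9, which encodes SGLT4, a sodium-coupled carrier of mannose and fructose, fell from 11.6 ± 0.963 to 3.88 ± 0.476 FPKM (-1.37 ± 0.20). SLC2A6, the lysosomal GLUT6, fell by 0.94 on the log2 scale, a call that ended with equal totals (adjusted p = 0.0595), with median-of-ratios (adjusted p = 0.0828) and in an ordinary linear model (adjusted p = 0.0555).

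More amino acid transporter genes rose than fell. Of 11 genes in this class, 7 rose (63.6%, beside 46.1% of all rows tested), 3 fell and SLC3A1 did not pass. In a class of 11 this gap is a few genes, and it was not tested. The median change was 1.32, against -0.80 over all rows tested. Since nearly every row rose or fell, such a median takes the sign of the larger side. The summed level of the class was 137, 163 and 193 FPKM in control replicates 1, 2 and 3. It was 438, 485 and 458 FPKM in H/R replicates 1, 2 and 3. SLC38A1, SLC38A2 and SLC7A1 made up most of it (112 ± 23.2 FPKM in control and 414 ± 28.7 FPKM after H/R).

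SLC38A2 encodes SNAT2, a sodium-coupled importer of small neutral amino acids whose gene is known to respond to amino acid shortage. It was at 29.3, 37.7 and 59.8 FPKM in control and at 149.8, 224 and 208 FPKM after H/R, with no overlap (2.21 ± 0.27, adjusted p = 9.22e-05). SLC38A1, the related glutamine importer SNAT1, went from 24.4, 32.6 and 47.4 FPKM to 91.9, 116 and 120.2 FPKM (1.66 ± 0.24, adjusted p = 0.00022). In both genes control replicate 3 was the highest control and H/R replicate 1 the lowest H/R sample, and the groups stayed apart. SLC7A1 encodes CAT1, the importer of arginine and lysine. Its values were 37.2, 39.2 and 29.8 FPKM in control and 142, 101.7 and 88.2 FPKM after H/R (1.60 ± 0.22, adjusted p = 0.000151). The H/R samples spread more widely than the controls, and all stood above them.

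Lower genes of the class rose as well. SLC6A20 encodes SIT1, a proline carrier of the intestinal and renal brush border, and went from 0.94, 0.94 and 0.66 FPKM to 10.8, 5.40 and 5.54 FPKM (2.10 ± 0.26, adjusted p = 0.000106), so that the H/R mean was 8.58 times the control mean. It reached the minimum for testing only through its H/R samples, so its test and ratio rest on control values under 1 FPKM. SLC36A4, the proton-independent carrier PAT4, went from 0.89, 1.46 and 1.53 FPKM to 3.83, 4.52 and 7.05 FPKM (1.40 ± 0.24, adjusted p = 0.000445). SLC1A4, the alanine, serine and cysteine exchanger ASCT1, and SLC6A9, the glycine transporter GlyT1, rose by 1.32 ± 0.28 and 1.15 ± 0.30. In SLC6A20, SLC1A4 and SLC6A9, H/R replicate 1 was the highest sample, at 10.8, 10.1 and 18.6 FPKM, while the other two H/R samples lay between 4.39 and 9.65 FPKM.

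The amino acid genes that fell were further members of the SLC38 family. SLC38A3 and SLC38A4 encode SNAT3 and SNAT4, carriers best known from the liver. SLC38A3 was at 24.5, 26.8 and 17.9 FPKM in control and at 7.25, 11.8 and 5.84 FPKM after H/R (-1.40 ± 0.27, adjusted p = 0.000804), and SLC38A4 at 7.63, 9.07 and 16.7 FPKM in control and at 1.29, 4.16 and 3.73 FPKM after H/R (-1.59 ± 0.36, adjusted p = 0.00194). Within a sample, the level of SLC38A2 was 1.20 to 3.33 times that of SLC38A3 in control and 18.9 to 35.7 times after H/R. SLC38A6 fell by 1.02 on the log2 scale, a call that ended in an ordinary linear model (adjusted p = 0.0524).

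SLC3A1 encodes rBAT, the heavy chain of the cystine and basic amino acid exchanger of the brush border. It stood at 1.90, 4.44 and 7.28 FPKM in control replicates 1, 2 and 3 and at 1.17, 2.09 and 2.85 FPKM in H/R replicates 1, 2 and 3, so the groups overlapped. Its change of -0.78 ± 0.37 did not pass (adjusted p = 0.0593), and passed without control replicate 1 (-1.18, adjusted p = 0.00446), without H/R replicate 3 (-0.97, adjusted p = 0.0405), with both replicates numbered 1 left out (adjusted p = 0.00603) and with quantile normalization (adjusted p = 0.0406).

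**Figure D2:**
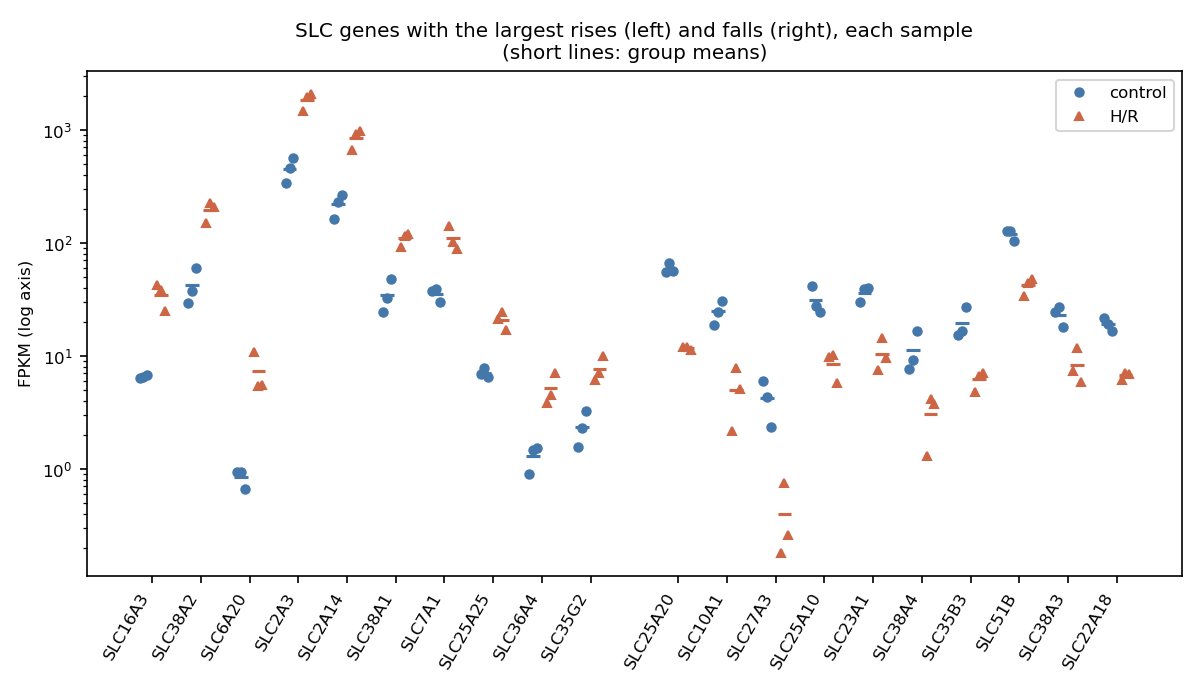
FPKM in each sample (log axis) for the 10 SLC genes with the largest rises and the 10 with the largest falls among called genes with separate groups; circles are control, triangles H/R, and short lines group means. SLC2A3 reaches 2064 FPKM in H/R replicate 3, and SLC25A20 stands at 11.3 to 12 FPKM in the 3 H/R samples against 54.9 to 65.5 FPKM in control.

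The gene of a lactate exporter rose. SLC16A3 encodes MCT4, the monocarboxylate transporter that exports lactate from glycolytic cells and a known HIF target. It was at 6.31, 6.50 and 6.78 FPKM in control and at 41.8, 37.8 and 24.8 FPKM after H/R (2.22 ± 0.23, adjusted p = 4.53e-05), with controls close together and the H/R samples more spread. It and SLC38A2 had nearly equal changes on this scale, and which stood first depended on the scaling. In the ratio of group means, SLC6A20 (8.58), SLC51A (8.0) and SLC35E4 (5.75), each with a control mean under 1 FPKM, rose by more than SLC16A3 (5.33). Both other SLC16 genes tested fell, as did 52.9% of all rows tested. SLC16A13, a further monocarboxylate carrier, fell from 9.07 ± 1.26 to 3.20 ± 0.556 FPKM (-1.26 ± 0.21), and SLC16A10, the aromatic amino acid carrier TAT1, fell by 0.87 ± 0.22, and missed the threshold when scaled by median-of-ratios (adjusted p = 0.103). Within a sample, SLC16A3 stood at 0.632 to 0.871 times the level of SLC16A13 in control and at 9.03 to 12.4 times after H/R. SLC16A11 was under the minimum for testing, listed at 0, 0 and 0.10 FPKM in control and at 0.35, 0.64 and 0.54 FPKM after H/R.

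Windows around annotated gene starts were read from RefSeq (GRCh38.p14) to show letters known as binding cores for factors of hypoxia and amino acid stress in genes with large changes. Of the 63 SLC genes, 48 matched a window, some with several starts. Each window runs from 250 bases before a start to 50 after it, and the coordinates belong to that build. Capitals mark, on either strand, ACGTG or GCGTG (core of the HIF site), TGATGNAA (core of the CARE site bound by ATF4), and TGACTCA or TGAGTCA (AP-1 site). The windows of SLC16A3 (chr17:82228792-82229091, plus strand), SLC38A1 (chr12:46266467-46266766, minus strand) and SLC7A1 (chr13:29595639-29595938, minus strand) are those of genes that rose, and that of SLC51B (chr15:65045137-65045436, plus strand) of a gene that fell.
SLC16A3: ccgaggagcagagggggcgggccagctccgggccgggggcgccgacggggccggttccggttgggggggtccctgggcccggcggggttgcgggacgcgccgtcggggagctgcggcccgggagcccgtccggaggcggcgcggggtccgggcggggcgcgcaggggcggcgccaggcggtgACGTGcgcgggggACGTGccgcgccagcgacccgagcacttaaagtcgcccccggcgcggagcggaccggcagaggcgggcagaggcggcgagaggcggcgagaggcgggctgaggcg
SLC38A1: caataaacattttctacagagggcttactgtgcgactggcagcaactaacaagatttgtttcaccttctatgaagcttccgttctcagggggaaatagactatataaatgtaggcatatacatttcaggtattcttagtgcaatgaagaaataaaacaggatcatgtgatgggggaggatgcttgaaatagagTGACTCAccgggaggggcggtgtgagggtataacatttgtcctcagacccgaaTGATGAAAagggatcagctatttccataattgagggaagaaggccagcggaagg
SLC7A1: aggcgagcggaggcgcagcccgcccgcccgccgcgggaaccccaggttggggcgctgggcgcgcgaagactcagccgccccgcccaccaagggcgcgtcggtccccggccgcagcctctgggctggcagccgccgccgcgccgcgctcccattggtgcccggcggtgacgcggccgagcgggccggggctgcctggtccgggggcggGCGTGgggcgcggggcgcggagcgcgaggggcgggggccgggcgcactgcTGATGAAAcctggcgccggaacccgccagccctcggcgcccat
SLC51B: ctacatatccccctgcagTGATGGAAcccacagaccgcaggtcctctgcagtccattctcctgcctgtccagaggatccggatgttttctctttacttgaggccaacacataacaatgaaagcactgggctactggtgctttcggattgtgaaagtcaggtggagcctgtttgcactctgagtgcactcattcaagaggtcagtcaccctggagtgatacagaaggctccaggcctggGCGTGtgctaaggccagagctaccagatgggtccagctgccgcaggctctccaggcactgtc
The SLC16A3 window held ACGTG 68 and 55 bases before the start. In SLC38A1, TGACTCA began 57 bases and TGATGAAA 4 bases before the start, and in SLC7A1, GCGTG began 43 bases before it and TGATGAAA 7 bases after it. The SLC51B window, of a gene that fell, also held TGATGGAA (232 bases before) and GCGTG (12 bases before).

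The 4 windows were chosen after their matches were seen, and that of SLC16A3 is 1 of 5 for the gene, while the window of SLC38A2 held none of these letters. SLC38A1 has a further window, which held ACGTG and GCGTG but neither TGATGNAA nor the AP-1 site. Such matches were not limited to genes that rose. Among windows of 300 bases, ACGTG or GCGTG stood in 19 of 30 windows of SLC genes that rose (63.3%), in 22 of 32 windows of those that fell (68.8%) and in 48.4% of the 35116 windows of all genes. TGATGNAA stood in 3 of 30, 2 of 32 (6.25%) and 3.62%, the AP-1 site in 6.67%, 6.25% and 4.95%, and the E-box CACGTG, which contains ACGTG, in 6.67%, 6.25% and 7.26%. Of 10 windows of 7 amino acid transporter genes that rose, 3 held TGATGNAA, 2 held the AP-1 site and 5 held ACGTG or GCGTG. Windows of 1 gene can overlap, and a match is a run of letters and not a site shown to be bound.

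Of 13 SLC25 genes, which encode mitochondrial carriers, 8 fell (61.5%) and 5 rose (38.5%), near the 52.9% and 46.1% of all rows tested, with a median change of -1.12 against -0.80 over all rows. Their summed level went from 744 ± 102 to 370.4 ± 27.4 FPKM, and without SLC25A1, the most abundant, from 279.7 ± 5.97 to 182 ± 9.40 FPKM.

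The carriers that fell have several substrates. SLC25A20 encodes the carnitine and acylcarnitine carrier, which brings fatty acids into the matrix for oxidation. It fell from 54.9, 65.5 and 56.3 FPKM to 11.9, 12 and 11.3 FPKM (-2.23 ± 0.18, adjusted p = 1.34e-05), with 3 H/R values that nearly coincided. This was the largest fall on the log2(FPKM + 1) scale. In the ratio of group means SLC27A3 (10.6-fold) and SLC25A35 (5.06-fold) fell by more than SLC25A20 (5.03-fold). So did SLC22A7, SLC22A9 and SLC34A1, which were under the minimum for testing. The order of SLC25A20, SLC10A1 and SLC27A3 changed with the pseudocount, with quantile normalization or with the samples left out. With a pseudocount of 0.01, SLC25A35 (-2.394) also passed SLC25A20 (-2.324). SLC25A10, the dicarboxylate carrier, went from 41.4, 27.4 and 24.2 FPKM to 9.71, 10.1 and 5.72 FPKM (-1.75 ± 0.27, adjusted p = 0.000286), where control replicate 1 was the highest. SLC25A1, the citrate carrier that supplies the cytosol with acetyl units for lipid synthesis, was at 573, 444 and 377 FPKM in control and at 181, 209 and 174 FPKM after H/R (-1.28 ± 0.19).

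Further falls were those of SLC25A11, the oxoglutarate and malate carrier (58.7 ± 2.88 to 25.7 ± 6.03 FPKM), SLC25A42, a coenzyme A carrier (-1.12), SLC25A22, a glutamate carrier (-0.99), and SLC25A35, a carrier of less certain substrate (2.13 ± 0.428 to 0.420 ± 0.208 FPKM).

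The calcium-regulated carriers of ATP-Mg and phosphate went in both directions. SLC25A25 rose from 6.89, 7.85 and 6.53 FPKM to 21.2, 24.5 and 16.9 FPKM (1.42 ± 0.21, adjusted p = 0.000225), and SLC25A24 from 6.40 ± 2.69 to 15.9 ± 2.95 FPKM (1.25 ± 0.29). SLC25A23, of the same subfamily, fell from 70.0 ± 7.72 to 31.0 ± 3.05 FPKM (-1.15 ± 0.18). In control, SLC25A25 stood at 0.0894 to 0.110 times the level of SLC25A23 in the same sample, and after H/R at 0.614 to 0.749 times, so SLC25A23 stayed the higher of the pair.

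SLC25A32, which carries folate and flavin into mitochondria, rose from 6.30 ± 1.22 to 15.6 ± 1.69 FPKM (1.20 ± 0.21). SLC25A36, a pyrimidine nucleotide carrier, and SLC25A30 rose by 1.10 ± 0.33 and 0.93 ± 0.38, with overlapping groups. SLC25A36 was at 27.8 FPKM in control replicate 3 and at 27.0 FPKM in H/R replicate 1, and SLC25A30 at 6.05 and 4.10 FPKM. Both calls ended in an ordinary linear model (adjusted p = 0.0753 and 0.150). That of SLC25A30 also ended without control replicate 1 (adjusted p = 0.13), control replicate 2 (0.0854), H/R replicate 2 (0.0967) or H/R replicate 3 (0.121).

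Of 11 genes for bile acids, fatty acids and organic ions, 8 were tested, of which 6 (75.0%) fell and 2 (SLC51A and SLCO4A1) rose, with a median change of -1.08, beside 52.9% that fell and a median of -0.80 over all rows tested. SLC10A1 encodes NTCP, the sodium-coupled bile acid importer best known from hepatocytes, and went from 18.8, 24.4 and 30.8 FPKM to 2.16, 7.77 and 5.09 FPKM (-2.19 ± 0.35, adjusted p = 0.000332). The groups did not overlap, and the lowest H/R sample was replicate 1. SLC27A3, which encodes FATP3, an acyl-CoA synthetase of the fatty acid transport protein family, went from 5.91, 4.34 and 2.34 FPKM to 0.18, 0.75 and 0.26 FPKM (-1.85 ± 0.28, adjusted p = 0.000243). It reached the minimum for testing only through its control samples, so its test rests on H/R values near the floor. SLC22A18, an organic cation transporter-like gene, went from 21.4, 19.0 and 16.6 FPKM to 6.09, 7.06 and 6.89 FPKM (-1.38 ± 0.20, adjusted p = 0.000202). SLC22A17, a receptor for lipocalin 2, and SLC27A1, the fatty acid transport protein FATP1, fell by 0.78 ± 0.17 and 0.69 ± 0.18, and SLC27A1 missed the threshold when scaled by median-of-ratios (adjusted p = 0.117). SLCO4A1, an organic anion transporting polypeptide that carries thyroid hormone, rose from 7.02 ± 0.430 to 15.7 ± 5.28 FPKM (1.01 ± 0.25).

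The subunits of the basolateral bile acid exporter moved in opposite directions. OSTα and OSTβ, encoded by SLC51A and SLC51B, form a heterodimer that moves bile acids and steroids out of the enterocyte. SLC51B was at 128, 126 and 104 FPKM in control and at 33.9, 44.2 and 47.7 FPKM after H/R (-1.49 ± 0.19, adjusted p = 0.000122). SLC51A was low in control, at 0.28, 0.17 and 0.26 FPKM, and at 2.45, 1.91 and 1.32 FPKM after H/R (1.21 ± 0.19, adjusted p = 0.000292). The H/R mean was 8.0 times the control mean. With a mean of 1.07 FPKM, SLC51A reached the minimum for testing only through its H/R samples. Its test and its ratio therefore rest on control values near the floor. The level of SLC51A was 0.135% to 0.251% of that of SLC51B in the same control sample and 2.77% to 7.22% after H/R, so SLC51B stayed the higher subunit in every sample.

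Members of this class under the minimum for testing stood lower in every H/R sample than in any control sample. SLC10A4 was at 0.97, 1.28 and 1.40 FPKM in control and at 0.23, 0.41 and 0.15 FPKM after H/R. SLC22A9, the liver organic anion transporter OAT7, was at 0.62, 0.71 and 1.35 FPKM and at 0.11, 0.17 and 0.07 FPKM, and SLC22A7, the related OAT2, at 0.33, 0.63 and 0.34 FPKM in control and at 0.10, 0.04 and 0 FPKM after H/R.

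**Figure D3:**
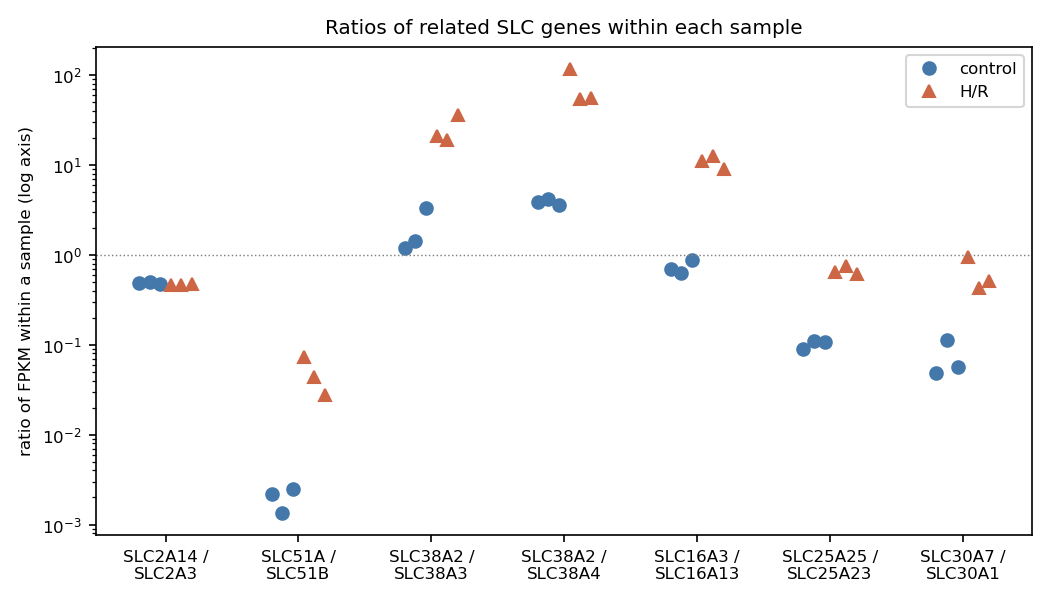
Ratio of the FPKM of related SLC genes within each sample (log axis), for 3 control samples (circles) and 3 H/R samples (triangles). The ratio of SLC2A14 to SLC2A3 stays between 0.457 and 0.500 in all 6 samples, while in the other pairs shown, chosen after their values were seen as genes that moved in opposite directions, every H/R sample lies above every control sample.

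Carriers of vitamin C, nucleotide sugars, zinc, phosphate and sulfate made up the rest. SLC23A1 encodes SVCT1, the ascorbate importer of epithelia, and went from 29.8, 38.6 and 39.4 FPKM to 7.51, 14.3 and 9.50 FPKM (-1.72 ± 0.25, adjusted p = 0.000201). All 3 H/R samples lay far under the lowest control. SLC35B3 encodes a Golgi carrier of PAPS, the sulfate donor, and went from 15.4, 16.6 and 26.8 FPKM to 4.80, 6.64 and 7.06 FPKM (-1.50 ± 0.26, adjusted p = 0.000437). SLC35G2, a member of the same family with no sure substrate, went from 1.54, 2.31 and 3.23 FPKM to 6.08, 7.0 and 9.91 FPKM (1.37 ± 0.26, adjusted p = 0.000685).

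In the same class, SLC35A3, a Golgi carrier of UDP-N-acetylglucosamine, and SLC35E4 rose by 1.11 ± 0.26 and 1.32 ± 0.23, and SLC29A4, which encodes the monoamine transporter PMAT, fell from 51.4 ± 6.82 to 20.5 ± 4.27 FPKM (-1.29 ± 0.21).

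Among inorganic ion genes 3 rose and 3 fell, near the 46.1% and 52.9% of all rows tested. With 99.0% of those rows called, a pair of genes in the same direction says little about its family. The phosphate importers of the plasma membrane rose together, SLC20A1 (PiT1) from 29.1 ± 5.08 to 64.8 ± 14.3 FPKM (1.12 ± 0.21) and SLC20A2 (PiT2) from 31.4 ± 4.70 to 60.8 ± 4.50 FPKM (0.94 ± 0.18). The sulfate transporters fell together, SLC26A2 from 43.7 ± 18.6 to 16.7 ± 5.53 FPKM (-1.30 ± 0.33) and SLC26A1 from 8.91 ± 0.773 to 3.18 ± 0.0529 FPKM (-1.24 ± 0.19). SLC4A11, a proton and ammonia carrier named after the bicarbonate transporters, rose by 1.22 ± 0.18, and SLC24A1, a sodium, calcium and potassium exchanger best known from the retina, fell by 0.72 ± 0.18. SLC34A1, the phosphate importer of the kidney, was under the minimum for testing, at 0.93, 0.90 and 0.85 FPKM in control and at 0.23, 0.19 and 0 FPKM after H/R.

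Of the 3 zinc genes, 2 fell and 1 rose, too few to set beside the 52.9% and 46.1% of all rows tested. SLC30A1 encodes ZnT1, the zinc exporter of the plasma membrane, and fell from 29.3 ± 9.68 to 10.7 ± 3.57 FPKM (-1.38 ± 0.30). SLC39A3, the importer ZIP3, fell from 36.5 ± 7.48 to 16.3 ± 2.00 FPKM (-1.11 ± 0.21), and SLC30A7, the Golgi carrier ZnT7, rose from 2.16 ± 1.22 to 6.07 ± 0.467 FPKM (1.24 ± 0.29). The ratio of SLC30A7 to SLC30A1 was 0.0480 to 0.113 in control and 0.423 to 0.950 after H/R.

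The genes that carry an SLC symbol without encoding a transporter were abundant, and both fell, as did 52.9% of all rows tested. SLC9A3R1, whose product NHERF1 ties transporters to the apical cytoskeleton, was at 932, 819 and 752 FPKM in control and at 414, 425 and 382 FPKM after H/R (-1.03 ± 0.16, adjusted p = 0.000249). SLC2A4RG, which encodes a regulator of GLUT4 transcription, fell from 274 ± 45.5 to 118 ± 17.1 FPKM (-1.21 ± 0.19). Without them, 25 SLC genes rose and 29 fell.

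**Figure D4:**
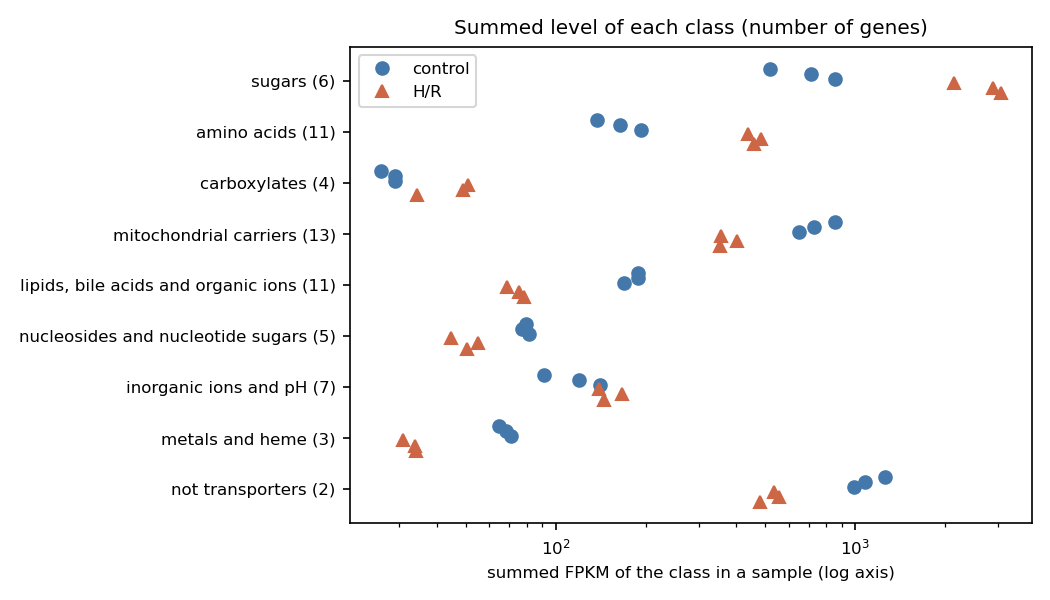
Summed FPKM of each substrate class in each sample (log axis), with the number of genes in brackets; circles are control, triangles H/R, and the class with 1 gene (SLC23A1) is not drawn. Sugar genes rise from 696 ± 169 to 2695 ± 495 FPKM, set by SLC2A3 and SLC2A14, mitochondrial carriers go from 744 ± 102 to 370.4 ± 27.4 FPKM, and the groups overlap only for inorganic ions.

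Of the SLC genes left out by the rule, all 5 rose (beside 46.1% of all rows tested), SLC2A1 and SLC6A8 by 3.39 and 3.05 on the log2 scale, more than any of the 63 genes above, and SLC7A11, SLC15A1 and SLC5A1 by 1.69, 1.02 and 0.87. The H/R mean of SLC2A1 was 1558 ± 173 FPKM, above that of SLC2A14.

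Pumps, channels and chaperones that work beside SLC transporters were compared in the same fit. Of 76 genes listed, NHERF1 not counted, 13 were in the table and 12 were tested, of which 6 rose and 6 fell, near the shares of all rows tested (46.1% and 52.9%, with 99.0% called). The rises with the lowest adjusted p were those of KCNN4, a calcium-activated potassium channel (1.53 ± 0.390 to 5.74 ± 0.670 FPKM), AQP10, an intestinal aquaglyceroporin (2.09 ± 0.994 to 6.61 ± 1.88 FPKM), CLCN5, an endosomal chloride and proton exchanger (1.44 ± 0.33), and OXSR1, a kinase that acts on cation chloride cotransporters (0.97 ± 0.30, with overlapping groups). AQP11, an intracellular aquaporin (93.1 ± 12.2 to 30.7 ± 5.56 FPKM), SCNN1A, a subunit of the epithelial sodium channel (14.9 ± 0.869 to 5.25 ± 1.20 FPKM), MPC2, a subunit of the mitochondrial pyruvate carrier (264 ± 12.1 to 128 ± 16.3 FPKM), and ABCC6 fell. The ABCC6 row is a numbered copy of a gene with close pseudogenes, so its change of -1.83 is uncertain. With an ordinary linear model 3 of the 6 rises were called.

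Libraries within a group differed along GC content of the transcripts. Relative to the mean of their group, rows were higher by 0.262 on the log2 scale per 10 points of GC in control replicate 1 and lower in control replicate 3 (-0.261), and the slopes of H/R replicates 1 and 3 were 0.156 and -0.125. Median GC was 47.2% for the SLC genes that rose and 58.9% for those that fell, close to all rows that rose (47.4%) and fell (57.1%). Control replicate 1 was the lowest control in 16 of the 25 SLC genes that rose. With both replicates numbered 1 left out, 25 SLC genes rose and 32 fell. The part of GC content in the changes was not tested.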

How the data were processed

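RNA-seq of poly(A) RNA was paired-end (150 bp). The authors deposited a single table of log2 FPKM values with 1 column for each sample. Undoing the logarithm and subtracting 1 gave multiples of 0.01 FPKM in 100% of the values (tolerance 1e-05), so the unit is log2(FPKM + 1). The sources used here name no aligner or counter. GRCm38 and mm10, both mouse builds, stand in the submitters' processing notes while the identifiers are human, so no coordinates were taken from the table. Of 2257 rows, 51 identical copies of a symbol were removed, and 2033 of the remaining 2206 had a mean of at least 1 FPKM. These were fitted with limma version 3.58.1 in R version 4.3.3 on log2(FPKM + 1) (model of group alone, two-sided moderated test, mean-variance trend, Benjamini-Hochberg adjustment over all rows tested). The fit was first tested on simulated tables.

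Groups and replicate numbers came from the sample titles. Classes follow SLC family numbers, so SLC16A10 stands with the carboxylates and SLC29A4 with the nucleosides. Every SLC gene may be named. Values in every sample go to the 10 largest rises and falls among called genes with separate groups, to the 3 highest genes, and to those that missed the threshold or the minimum. Up to 4 partner genes are named per direction, by adjusted p. Further genes with sample values were added after their values were seen, as were the pairs whose ratios are given. The members and lists were chosen with earlier results of these data known. GC content is the median over protein-coding transcripts of GENCODE, which covered 100% of the SLC genes. Alternatives changed pseudocount, filter, scaling, moderation, replicate block and the samples left out.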

Additional observations from a re-analysis of the deposited data

How the results depend on the processing

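Of the 57 SLC genes tested, 49 kept their direction and their side of the threshold under all 17 alternatives that could give them a value, and none changed direction. The other 8 were SLC3A1, which passed under 5 of them (with the replicate number as a block, adjusted p = 0.00328), and SLC38A6, SLC27A1, SLC25A36, SLC5A3, SLC25A30, SLC16A10 and SLC2A6, whose calls ended under the scalings, linear model or left-out samples given with them above. The count that rose was between 22 (ordinary linear model) and 26 (no filter), apart from 18 at a minimum of 5 FPKM, and the count that fell between 28 (median-of-ratios scaling) and 36 (no filter), apart from 25 at that minimum. There fewer genes are tested. Leaving out 1 sample at a time gave 24 to 25 rises and 31 to 32 falls. Of the transport partners, 6 rose, and 3 with an ordinary linear model. With the replicate number as a block, 25 SLC genes rose and 32 fell. The labels name no pairs, so the main fit used none. Across 2033 rows, deviations from the group means correlated between same-numbered samples by 0.497, 0.0725 and 0.522 for numbers 1, 2 and 3. Numbers 1 and 3 correlated best with their own number, and number 2 did not. Deviations cancel within a group, so these values are tied to each other. Whether same-numbered samples share a batch was not tested. Because the rows look selected as changed, stable counts of calls say little about genes outside the table. Depth is unknown, so no limit could be set for values listed at 0.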

Other observations

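For 3 SLC symbols the table held a further numbered row with other values, which was not used above. The second row of SLC25A24 went from 3.66 ± 2.12 to 11.1 ± 3.70 FPKM (1.44 ± 0.34, adjusted p = 0.00236) and that of SLC2A6 from 5.08 ± 0.790 to 2.43 ± 0.722 FPKM (-0.84 ± 0.22, adjusted p = 0.00456), each in the direction of the row used. The second row of SLC5A11 was at 0.74, 0.52 and 0.71 FPKM in control and at 0.14, 0.11 and 0.27 FPKM after H/R.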
